A study of Homo sapiens with 8 samples.

Results

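The alpha and beta tubulin genes were examined in the input RNA of METTL3-knockdown and control pancreatic carcinoma cells. The set comprised 10 of the 63568 genes of the count table, namely the 4 alpha tubulin genes TUBA1A, TUBA1B, TUBA1C and TUBA4A and the 6 beta tubulin genes TUBB, TUBB2A, TUBB2B, TUBB3, TUBB4B and TUBB6. They were chosen by name from a list of alpha and beta isotypes. No measured value entered the rule, although earlier results of these data were known when they were chosen. All 10 identifiers were found in the table and matched to their symbols.

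MIAPaCa-2, an established human pancreatic carcinoma line, was used with a non-targeting short hairpin RNA (shRNA-Control) or with one directed at METTL3 (shRNA-METTL3), the catalytic subunit of the nuclear writer complex of N6-methyladenosine (m6A). Methylated RNA immunoprecipitation sequencing (MeRIP-seq) compares RNA fragments precipitated by an antibody to m6A with input RNA that was not precipitated. The 8 samples formed 4 groups, an m6A and an input group from the control and from the METTL3-knockdown (METTL3-KD) cells, and the 2 samples of a group were lanes of 1 library. The number of cell clones, the treatment of the cultures and the time after introduction of the shRNA were not given in the labels. Each condition thus had 1 input library, no difference between conditions has a replicate check, and all intervals cover counting error in these libraries only.

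Alpha and beta tubulin form the heterodimer from which microtubules are built. The newly made chains need the chaperonin CCT, prefoldin and the tubulin cofactors to fold and pair. Cells also regulate the stability of tubulin mRNA: when free dimers are in excess, TTC5 recognises the first residues of nascent tubulin at the ribosome and the mRNA is degraded. The isotypes are encoded by separate genes, of which TUBA1B, TUBA1C, TUBB and TUBB4B are widely expressed and TUBB3 and TUBB2B are known from neurons.

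The targeted gene, METTL3, had 0 reads in both lanes of both inputs, so the labels could not be checked by it and no fold was given. The lanes of the control input held 1609215 and 1628753 reads and those of the METTL3-KD input 906240 and 926765 reads. Reads were found for 2730 genes in the control and 10463 genes in METTL3-KD. The control input had 310 aligned reads per distinct position and the METTL3-KD input 25.7, so most reads repeated the same fragment. The density of log2 reads per gene had its highest maximum at 1037 reads in the control and at 35.5 in METTL3-KD. The lower mode was picked as the local maximum nearest to 1 log2 unit below it, at 511 and 19.4 reads. The spacing of the modes thus follows from this rule. A count divided by the lower mode is called here a fragment equivalent, an approximation that assumes equal copying of all fragments. The reads per distinct position (310 and 25.7), used as the unit instead, would give more fragment equivalents in the control and fewer in METTL3-KD. A limit of 3 fragment equivalents was worth 473 CPM (reads scaled to library size) in the control and 31.7 CPM in METTL3-KD. Of the epithelial markers, KRT8 (10850 and 1167 reads) and KRT18 (3535 and 1212 reads) were detected in control and METTL3-KD, KRT19 had 1 and 201 reads, KRT7 had 1 and 0 reads, and EPCAM and CDH1 had 0 in both. The mesenchymal marker VIM had 8978 and 5649 reads and CDH2 had 0. Of 5 fibroblast markers only COL1A2 had reads (1804 and 353), and all 4 immune and all 4 neuronal markers had 0 reads, each limited by the floor of 3 fragment equivalents.

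The tubulin genes are close copies of each other, and this bears on every count below, because a read of 75 bases from a shared stretch cannot be assigned to 1 gene. The coding starts of the beta genes, which encode the residues read during autoregulation of tubulin mRNA, are shown so that the differences between members can be seen. The first 60 coding bases of each canonical transcript (hg19, GENCODE) are written in lower case from the start codon, and capitals mark each base that differs from TUBB. The position given is that of the first base of the start codon, on chromosome 6 for TUBB, TUBB2A and TUBB2B, 16 for TUBB3, 9 for TUBB4B and 18 for TUBB6.
TUBB (position 30688284, plus strand): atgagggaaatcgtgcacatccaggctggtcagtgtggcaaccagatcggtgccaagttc
TUBB2A (position 3157697, minus strand): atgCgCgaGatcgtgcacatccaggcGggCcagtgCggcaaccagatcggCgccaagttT
TUBB2B (position 3227777, minus strand): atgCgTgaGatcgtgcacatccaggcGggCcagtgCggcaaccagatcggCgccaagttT
TUBB3 (position 89989810, plus strand): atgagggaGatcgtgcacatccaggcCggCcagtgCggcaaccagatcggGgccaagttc
TUBB4B (position 140135813, plus strand): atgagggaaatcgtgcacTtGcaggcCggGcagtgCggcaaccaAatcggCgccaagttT
TUBB6 (position 12308292, plus strand): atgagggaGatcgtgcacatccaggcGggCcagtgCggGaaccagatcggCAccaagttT

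The beta genes differed from TUBB at 5 (TUBB3) or 8 positions (the other genes). In all 4 alpha genes the first coding exon held 3 coding bases, the start codon alone, and in all 6 beta genes it held 57. Over the whole coding sequence, TUBB2A and TUBB2B were 98.2% identical, TUBA1A and TUBA1B 97.2%, TUBA1B and TUBA1C 96.8% and TUBA1A and TUBA1C 95.9%. The least alike pair within a family was TUBB and TUBB6 at 81.0%.

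The read-length windows of each canonical transcript were searched for exact copies elsewhere in the genome or in another of the 10 transcripts. TUBB2B had copies for 76.4% of its 1261 coding windows and TUBB2A for 71.6% of 1261, of which 864 windows were shared between the pair. TUBA1B had copies for 58.6%, TUBA1C for 39.0% and TUBA1A for 38.6% of their coding windows. TUBB followed with 17.4%, mainly from the pseudogene TUBBP1 with 213 shared windows. TUBB3 had 8.70% and TUBB4B 6.66%. TUBB6 and TUBA4A had no window with a copy. Outside the coding sequence the share ran from 0 to 3.76%. The counts of TUBB2A and TUBB2B, and those of the 3 TUBA1 genes, are therefore uncertain as a split between paralogs, since the treatment of reads with several alignments is not stated. The plot of shared windows gives these shares by gene.

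**Figure D1:**
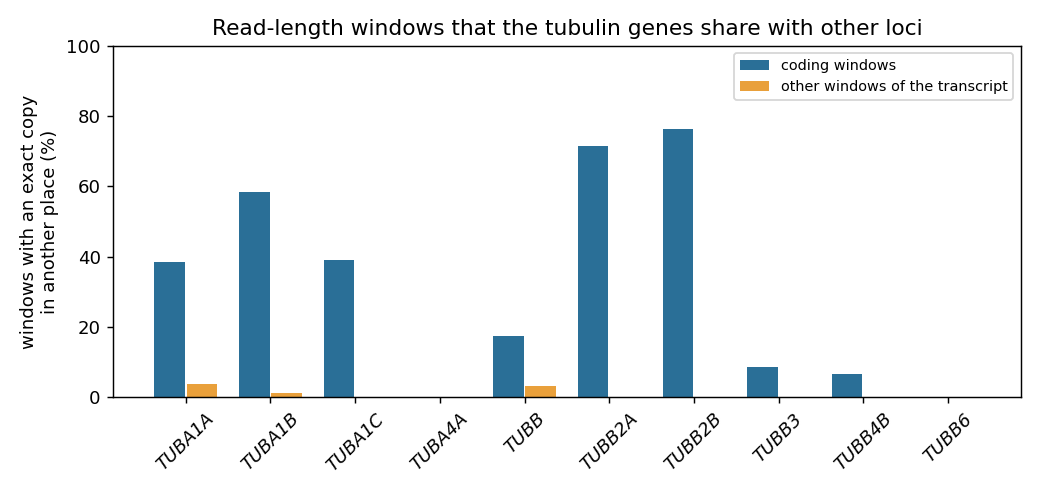
Share of read-length windows (75 bases, in percent) of each canonical tubulin transcript that have an exact copy in another place, for windows within the coding sequence (blue) and all other windows (orange). TUBB2B (76.4%) and TUBB2A (71.6%) have the highest coding shares, and TUBA4A and TUBB6 have none.

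Among the alpha tubulin genes, TUBA1B and TUBA1C carried most reads in both inputs. TUBA1B, on chromosome 12 (chr12:49521565-49525180, minus strand), had 897 and 969 reads in the lanes of the control and 1343 and 1333 in those of METTL3-KD. TUBA1C (chr12:49582519-49668383, plus strand) had 516 and 547 reads in the control and 874 and 861 in METTL3-KD. TUBA1A (chr12:49578469-49582863, minus strand), an isotype known for its role in developing neurons, had 1 and 0 reads in the control and 239 and 192 in METTL3-KD. For these 3 genes both METTL3-KD lanes lay above both control lanes, although the METTL3-KD library held fewer reads. TUBA4A (chr2:220114432-220142624, minus strand), an isotype abundant in platelets and muscle, had 0 reads in all lanes, whereas STK16, which overlaps it on the other strand, had 0 reads in the control and 36 in METTL3-KD.

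Among the beta tubulin genes, the order of the lanes was the opposite for most members. TUBB6 (chr18:12307668-12344319, plus strand), a class V beta tubulin, had 1076 and 1097 control reads per lane and 148 and 182 in METTL3-KD. TUBB2B (chr6:3223558-3231964, minus strand) had 989 and 996 control reads per lane and 395 in each METTL3-KD lane. TUBB (chr6:30685212-30693315, plus strand), the main beta isotype of most dividing cells, had 925 and 919 control reads per lane and 490 and 498 in METTL3-KD. In these 3 genes both control lanes exceeded both METTL3-KD lanes before scaling.

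TUBB2A (chr6:3153731-3157778, minus strand) had 748 and 784 control reads per lane and 537 and 547 in METTL3-KD. TUBB4B (chr9:140135739-140138159, plus strand), a class IV isotype also used in cilia, had 472 and 465 control reads and 324 and 323 in METTL3-KD. TUBB3 (chr16:89987800-90005169, plus strand), the class III isotype, had 184 and 207 control reads and 227 and 241 in METTL3-KD. TUBB3 was thus the only beta member with more raw reads in METTL3-KD. Over the 8 members with more than 3 reads in both inputs, lane 1 held 44.8% to 50.4% of a gene's reads, against 49.7% and 49.4% of all reads, so the lanes agreed far more closely than the libraries. This closeness covers sequencing of the same library, not separate cultures.

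**Figure D2:**
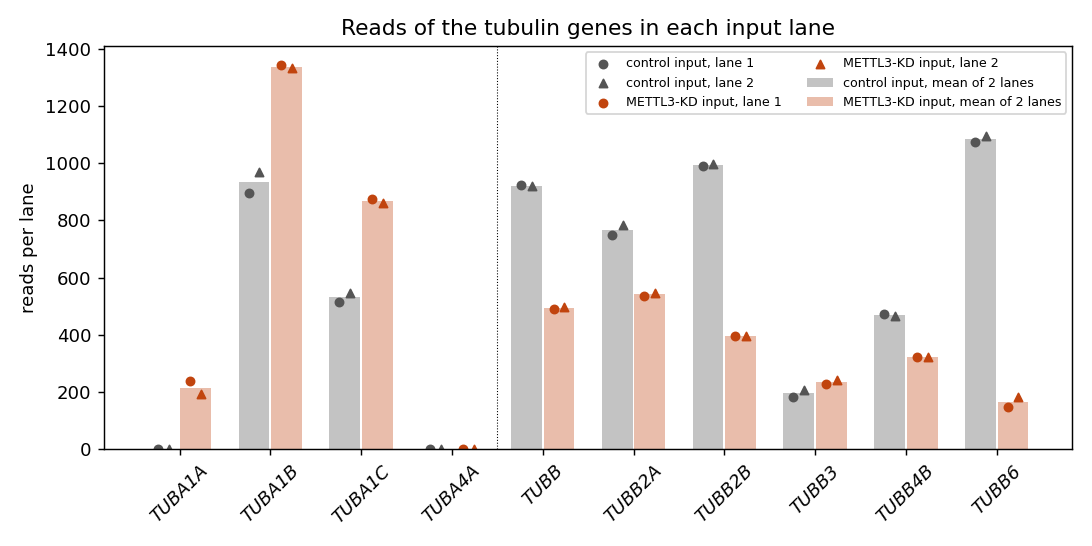
Reads of each tubulin gene in lane 1 (circles) and lane 2 (triangles) of the control input (grey) and METTL3-KD input (orange), with bars at the mean of the lanes. The alpha genes TUBA1A, TUBA1B and TUBA1C are higher in METTL3-KD, and 5 of the 6 beta genes are higher in the control before scaling.

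Raw counts do not allow for the different sizes and compositions of the libraries. In CPM, TUBA1B was at 576 in the control and 1460 in METTL3-KD and TUBA1C at 328 and 947 CPM. TUBB was at 569 and 539 CPM and TUBB6 at 671 and 180 CPM. After scaling with TMM (trimmed mean of M-values), which gave the control a factor of 1.61 and METTL3-KD a factor of 0.621, the log2 ratio of METTL3-KD over control was 2.90 for TUBA1C, 2.71 for TUBA1B and 2.44 for TUBB3. It was 1.69 for TUBB2A, 1.66 for TUBB4B, 1.29 for TUBB and 0.86 for TUBB2B. TUBB6 was the only member with a negative TMM ratio, at -0.52, and DESeq2 with lanes as replicates put it at 0.03.

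The signs of the TUBB and TUBB2B ratios depended on the scaling, because a change of scaling moves the ratios of all genes together. With total counts the ratio was 1.53 for TUBA1C, 1.34 for TUBA1B and 1.08 for TUBB3, but 0.32 for TUBB2A, 0.29 for TUBB4B, -0.08 for TUBB, -0.51 for TUBB2B and -1.89 for TUBB6. With this choice the median of the 1871 genes with at least 10 reads in each input fell by 1.36, from -0.61 to -1.98. The median of the 8 tubulin genes among them was 1.67 with TMM and 0.30 with total counts, a shift shared with all genes.

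By the size rule of the study (a log2 ratio beyond 2), 0 of the 9 tubulin genes with at least 10 reads were under -2 and 4 were above 2 (TUBA1A, TUBA1B, TUBA1C and TUBB3). Of all 9931 genes with at least 10 reads, 7.37% were under -2 and 79.1% were above 2, most of them with no control reads at all. TUBA1A reached that number of reads through METTL3-KD alone. Among genes with at least 10 reads in each input, 3 of 8 tubulin genes were above 2 against 7.8% of all 1871, and 0 of 8 were under -2 against 21.3%. With total counts only TUBA1A was above 2, and the share of all genes above 2 was not computed on that scaling.

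The number of fragments behind these reads was small in the control. Under its limit of 3 fragment equivalents, 473 CPM, lay TUBA1C (328 CPM), TUBB4B (289 CPM), TUBB3 (121 CPM), TUBA1A and TUBA4A. TUBB2A was at this limit. Among the genes with a log2 ratio above 2, only TUBA1B exceeded it in the control. The control reads of the members corresponded to 4 fragment equivalents each for TUBA1B, TUBB, TUBB2B and TUBB6, 3 for TUBB2A, 2 for TUBA1C and TUBB4B, and 1 for TUBB3. In METTL3-KD they corresponded to 138 for TUBA1B, 90 for TUBA1C, 56 for TUBB2A, 51 for TUBB, 41 for TUBB2B, 33 for TUBB4B, 24 for TUBB3, 22 for TUBA1A and 17 for TUBB6. On this scale, with the TMM factors kept, the 95% interval of the log2 ratio lay above 0 for TUBA1B (2.42, 1.19 to 4.48), TUBA1C (2.64, 1.07 to 6.03) and TUBB2A (1.52, 0.07 to 4.02). It held 0 for TUBB (-0.30 to 3.07), TUBB2B (-0.64 to 2.77), TUBB4B (-0.45 to 4.62), TUBB3 (-0.56 to 7.42) and TUBB6 (-2.06 to 1.59). With total counts the interval held 0 for all 8, the one nearest to excluding it being that of TUBB6 (-3.43 to 0.22). Intervals from the reads themselves were far narrower, for example 2.63 to 2.80 for TUBA1B, but reads of the same fragment are not separate observations.

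**Figure D3:**
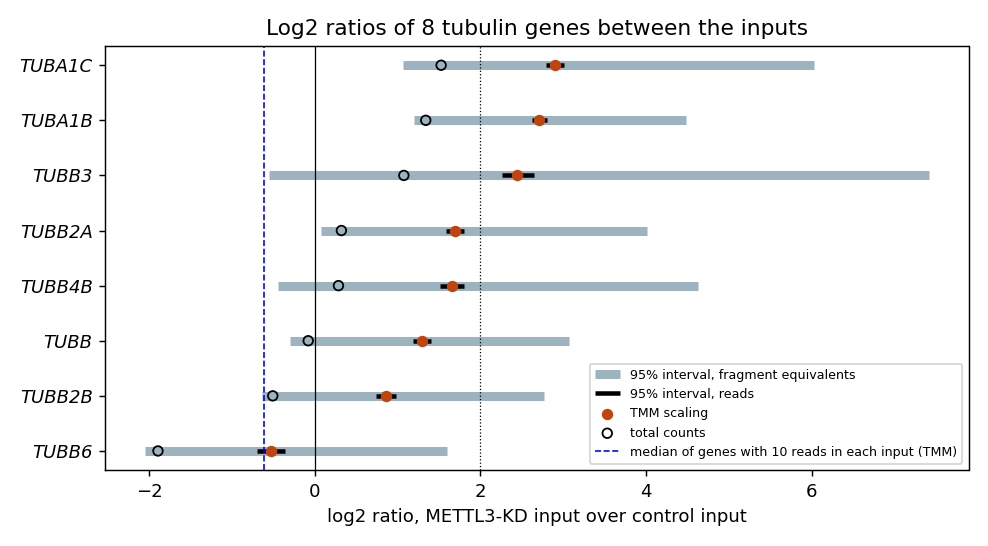
Log2 ratios (METTL3-KD input over control input) of the 8 tubulin genes with more than 3 reads in both inputs, with TMM scaling (orange) and total counts (open circles). Black and grey bars are 95% intervals from reads and from fragment equivalents, both with TMM scaling, the dashed line is the median of 1871 genes (-0.61) and the dotted line marks 2. The grey bars of TUBA1B, TUBA1C and TUBB2A lie above 0.

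TUBA1A needs separate mention because its control level was under 3 reads as well as under the limit of 3 fragment equivalents. Its log2 ratio of 8.85 rested on 1 control read, with an interval from reads of 8.46 to 16.3, and the ratio moved between 2.78 and 11.5 over the alternatives. In fragment equivalents TUBA1A had 0 in the control and 22 in METTL3-KD. On that scale the lower end of the 95% interval of its log2 ratio was -0.07 with TMM and -1.45 with total counts, so the interval held 0 under both.

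The balance between the families does not depend on library scaling. Alpha tubulin took 2930 of the 11792 tubulin reads in the control, or 24.8%, and 4842 of 9149 in METTL3-KD, or 52.9%. In fragment equivalents the shares were 6 of 24, or 25% (95% Wilson interval 12 to 44.9), and 250 of 472, or 53.0% (48.5 to 57.4), and these intervals did not overlap. TUBA1A and TUBA1C share 345 exonic bases on opposite strands, and a read there may have been counted for both genes. Without TUBA1A, an alternative chosen after seeing the data, the alpha share was 24.8% in the control and 50.6% in METTL3-KD by reads, and 25% (12 to 44.9) and 50.7% (46.1 to 55.3) by fragment equivalents. The ratio of beta to alpha reads was 3.02 in the control and 0.89 in METTL3-KD. Tubulin reads as a whole made up 0.364% of the control reads and 0.499% of the METTL3-KD reads. For the sum of the alpha genes the log2 ratio was 2.92 (1.55 with total counts), and for the sum of the beta genes it was 1.15 (-0.22 with total counts), so the direction of the beta sum changed with the scaling.

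Within alpha tubulin, TUBA1B held 63.7% of the reads in the control and 55.3% in METTL3-KD, and TUBA1C held 36.3% and 35.8%. TUBA1A held 0.0341% and 8.90%. In fragment equivalents the Wilson interval of TUBA1B ran from 30.0% to 90.3% for the control and from 49.0% to 61.2% for METTL3-KD. That of TUBA1A was 0 to 39.0% and 5.88% to 13.0%. For each alpha gene the intervals of the 2 libraries overlapped. Overlap of separate intervals is not a test of a difference, and no test compared the shares.

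Within beta tubulin, TUBB6 held the highest share in the control (24.5%) and the lowest in METTL3-KD (7.66%). TUBB2A was at 17.3% and 25.2%, TUBB at 20.8% and 22.9%, TUBB2B at 22.4% and 18.3%, TUBB4B at 10.6% and 15%, and TUBB3 at 4.41% and 10.9%. The fragment-based intervals of TUBB6 were 9% to 45.2% for the control and 4.84% to 11.9% for METTL3-KD. These overlapped, as did those of the other 5 genes, and here too no test compared the shares. TUBB6 shares no exact read-length window with another locus, whereas TUBB2A and TUBB2B share most of their coding windows, and their sum was 39.7% of the beta reads in the control and 43.5% in METTL3-KD.

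**Figure D4:**
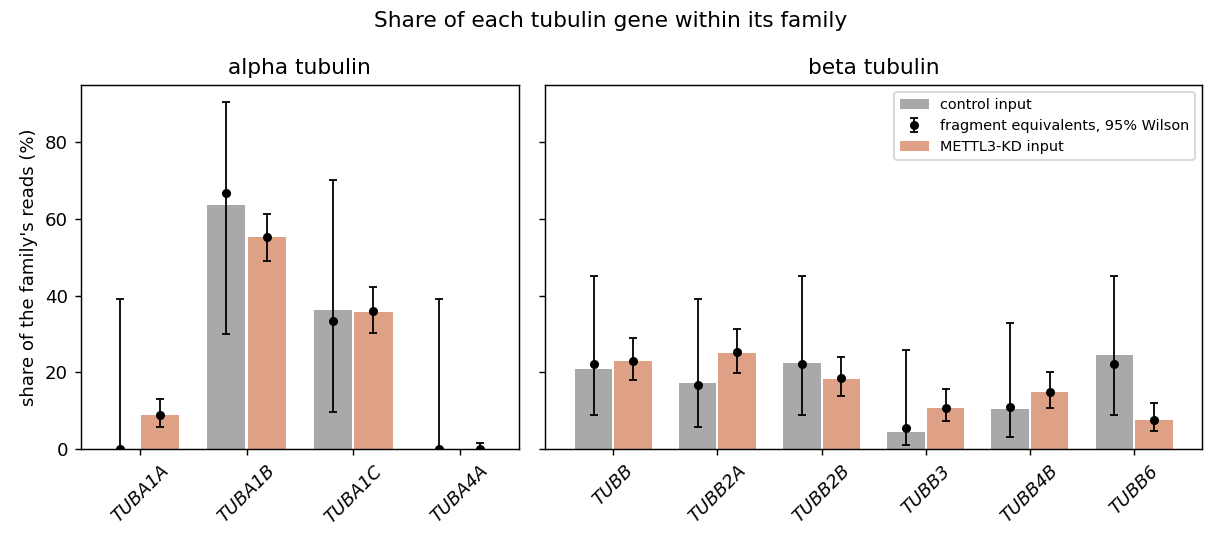
Share of each gene (percent of the reads of its family) in the control input (grey bars) and METTL3-KD input (orange bars), with black points and 95% Wilson intervals for fragment equivalents. TUBB6 goes from 24.5% to 7.66% of beta tubulin reads and TUBA1A from 0.0341% to 8.90% of alpha tubulin reads, and the intervals overlap for every gene.

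Levels were ordered per kilobase of merged exons. In the control the order was TUBB6 (551 reads per kb), TUBB2A (527), TUBA1B (522), TUBB2B (477), TUBB4B (460), TUBB (453), TUBA1C (239), TUBB3 (52.7) and TUBA1A (0.262). The fragment-based intervals of all 8 neighbouring pairs overlapped, and the neighbours were not compared by a test. In METTL3-KD the order was TUBA1B (749 reads per kb), TUBA1C (390), TUBB2A (373), TUBB4B (318), TUBB (243), TUBB2B (190), TUBA1A (113), TUBB6 (83.7) and TUBB3 (63.1). Only the first pair, TUBA1B and TUBA1C, had intervals that did not overlap. The order depended on the length used. Per kilobase of canonical transcript, chosen after seeing the data, TUBB3 (274 reads per kb) stood above TUBA1A (258) and TUBB6 (176) in METTL3-KD, and TUBB2A (671) above TUBA1C (615). TUBA1B was again first (1645 reads per kb), and its interval was the only one that did not overlap that of its neighbour. In the control all 8 neighbouring pairs overlapped on this scale too. By raw reads TUBA1B ranked 44th and TUBA1C 60th of the 10463 genes with reads in METTL3-KD, and 277th and 751st of 2730 in the control, in which TUBB6 ranked highest of the members at 164th.

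Genes that overlap the tubulin genes showed how reads had been counted. The read-through gene MC1R-TUBB3 (ENSG00000198211) had 184 and 207 control reads per lane and 236 and 256 in METTL3-KD. In every lane this equalled the sum of TUBB3 and MC1R (0, 0, 9 and 15 reads), so a read in overlapping genes was counted for each of them. The counts of the table summed to 1.12 times the aligned reads in the control and 1.37 times in METTL3-KD. The antisense gene TUBA1B-AS1, which shares 1571 exonic bases with TUBA1B, had 894 and 2137 reads in control and METTL3-KD. The antisense gene within TUBB (ENSG00000272540) had 698 and 438 reads, and the antisense gene within TUBA1C (ENSG00000258232) had 1 and 750. AFG3L2, a mitochondrial protease gene that shares 837 exonic bases with TUBB6 on the other strand, had 483 and 61 reads, fewer in METTL3-KD as for TUBB6. A noncoding gene within TUBB3 on the other strand (ENSG00000259006) had 0, 0, 9 and 15 reads per lane, the same counts as MC1R. Whether these were the same reads was not tested. The use of strand in counting is not stated, so reads of sense and antisense partners cannot be told apart.

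Of 12 other tubulin genes in the table, none had a control read and 4 had at least 10 reads in METTL3-KD. These were TUBG1 (63 reads) and TUBG2 (48), the gamma tubulins of the nucleating ring, TUBB4A (46) and the delta tubulin TUBD1 (28). Of 50 annotated tubulin pseudogenes, 46 had 0 reads in both inputs. TUBB2BP1 had 1 control read and 483 METTL3-KD reads, TUBAP2 had 1 and 246, TUBBP1 had 0 and 90 and TUBAP14 had 0 and 16. TUBB2BP1 shares 244 read-length windows with TUBB2B and 184 with TUBB2A, TUBAP2 shares 174 with TUBA1B, and TUBBP1 shares 213 with TUBB. Whether the pseudogene reads came from these parent genes was not tested.

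The genes that fold and supply tubulin had 18 of 21 members of the table with at least 10 reads, of which 0 had a log2 ratio under -2 (7.37% of all genes) and 10 were above 2 (79.1% of all genes), all 10 with 0 control reads. Among the 8 genes with at least 10 reads in each input, the lowest ratios were those of the tubulin cofactors TBCD (1459 and 171 reads, log2 ratio -0.90) and TBCB (1118 and 153 reads, -0.67) and of the chaperonin subunit CCT2 (1024 and 183 reads, -0.29). The highest were those of the chaperonin subunits CCT6A (1.86), TCP1 (1.03) and CCT4 (0.81). The median of the 8 was 0.64, above the -0.61 of all 1871 such genes. With total counts, under which the median of those genes fell by 1.36 to -1.98, TBCD (-2.26) and TBCB (-2.04) passed under -2. In fragment equivalents of control and METTL3-KD, TBCD had 3 and 9, TBCB 2 and 8 and CCT2 2 and 9. CCT6A had 1 and 22, TCP1 2 and 23 and CCT4 3 and 29.

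Of the 17 genes for tubulin modification, 9 were tested, 2 were under -2 (against 7.37% of all genes) and 6 above 2 (against 79.1%), the 6 with 0 control reads. AGTPBP1, a deglutamylase, had 1101 and 38 reads (log2 ratio -2.64), and TTL, the tubulin tyrosine ligase, had 1080 and 191 (-0.31). VASH1, a detyrosinating peptidase named because it made up the count, had 1024 reads in the control and 0 in METTL3-KD. In fragment equivalents of control and METTL3-KD, AGTPBP1 had 2 and 2, TTL 2 and 10 and VASH1 2 and 0.

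Of the 22 genes for microtubule dynamics, 17 were tested. Of these, 3 were under -2 (against 7.37% of all genes) and 10 above 2 (against 79.1%), again all 10 with 0 control reads. With total counts 4 were under -2. Under that scaling the median of the 1871 genes with at least 10 reads in each input was itself -1.98, and the share of all genes is not given here. The severing enzyme SPAST had 1189 and 38 reads (log2 ratio -2.75), the depolymerising kinesin KIF2A 1136 and 50 (-2.30) and the minus-end protein CAMSAP1 449 and 34 (-1.51). MAP1S, named because it made up the count, had 1019 reads and 0. The microtubule-associated protein MAP4 (1.78), the spindle factor TPX2 (1.26) and the polymerase CKAP5 (0.68) had the highest ratios. In fragment equivalents of control and METTL3-KD, SPAST had 2 and 2, KIF2A 2 and 3, CAMSAP1 1 and 2 and MAP1S 2 and 0. MAP4 had 1 and 22, TPX2 2 and 26 and CKAP5 4 and 37.

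Of the 18 nucleation genes in the table, 15 were tested. Of these, 2 were under -2 (against 7.37% of all genes) and 12 above 2 (against 79.1%), the 12 with 0 control reads. With total counts, under which the median of the 1871 genes was -1.98, 3 were under -2. NEDD1, which brings the gamma-tubulin ring to the centrosome, had 1116 and 36 reads (log2 ratio -2.74) and the augmin subunit HAUS7 468 and 31 (-1.70), while HAUS6, named because it made up the count, had 178 and 0. In fragment equivalents of control and METTL3-KD, NEDD1 had 2 and 2, HAUS7 1 and 2 and HAUS6 0 and 0. Equal or nearly equal fragment equivalents thus lay behind the ratios of AGTPBP1, SPAST, KIF2A and NEDD1, all under -2. A fragment equivalent was worth 158 CPM in the control and 10.6 CPM in METTL3-KD. Equal numbers therefore still stand for a lower scaled level in METTL3-KD. With so few fragments these ratios are uncertain, and no fragment-based interval was computed for these genes. The counts of the 4 lists are of few genes and carry no test, and the control reads of each named gene correspond to 0 to 4 fragment equivalents.

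**Figure D5:**
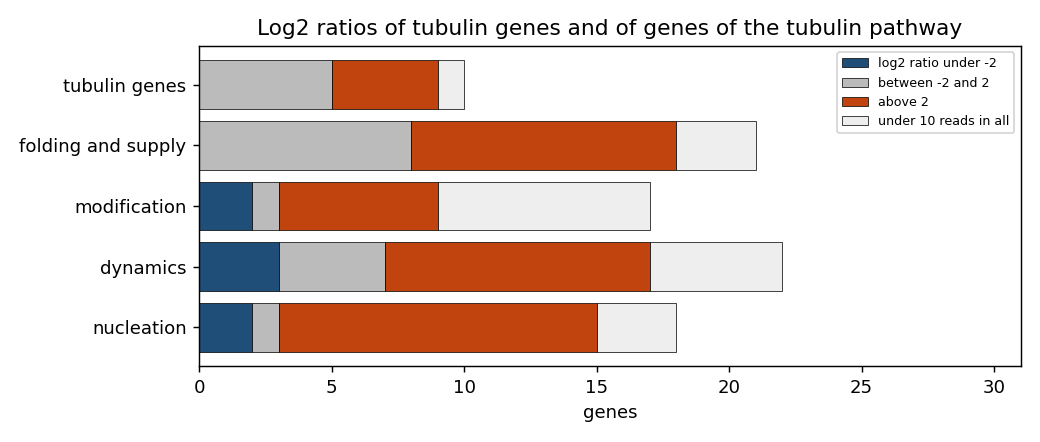
Number of genes with a log2 ratio (METTL3-KD over control, TMM) under -2, between -2 and 2, above 2, or with under 10 reads in all, for the tubulin genes and 4 lists of tubulin pathway genes. The genes under -2 number 0 to 3 in each set, and with total counts 0 of the tubulin genes and 2 to 4 of each list are under -2. Under total counts the median of the 1871 genes with at least 10 reads in each input is -1.98.

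In the m6A libraries, peaks were examined as called by the authors on both lanes together against the input, with a q value under 0.01. None of the 10 tubulin genes held a control peak, and 1 held a METTL3-KD peak. Among 8881 annotated genes with at least 10 input reads, 17.1% held a control peak and 5.7% a METTL3-KD peak, and with 10 genes the counts of 0 and 1 do not set the tubulin genes apart from these shares. Any overlap with the gene body was counted, and the shares were not matched for gene length. The METTL3-KD peak lay within the long gene body of TUBA1C where the annotation gives an intron, upstream of the canonical transcript. Its pileup was 2 fragments after duplicates were removed, the enrichment over background was 3-fold and the −log10 q value was 6.88. The peak was partly repetitive, with 47 of its 77 stretches of 25 bases found in more than 1 place of the genome and 15 in more than 1000, so its place in TUBA1C is uncertain.

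The canonical tubulin transcripts held from 21 (TUBB3) to 50 (TUBA1C) matches to the DRACH motif of m6A (A, G or T, then A or G, then A and C, then A, C or T) on the transcript strand, overlaps included. Per kilobase this was 12.3 for TUBB3 and 18.7 for TUBB2B as the extremes, against a median of 18.9 over 7484 protein-coding genes with at least 10 reads. The absence of control peaks from the tubulin genes says only that none was called. Aligned m6A reads covered 7920 distinct positions in the control (2242358 reads) and 4508 in METTL3-KD (1252805 reads), so few fragments were available to any gene. Of the 2298 control peaks, 1196 had a pileup of 1 fragment.

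Peaks were called in several genes of the tubulin pathway. In the control they fell in 10 of 21 folding genes, 8 of 22 genes for dynamics, 3 of 17 for modification and 3 of 18 for nucleation, against 17.1% of the 8881 genes with at least 10 input reads. In METTL3-KD they fell in 2, 2, 1 and 1 genes of these lists, against 5.7%. Genes of the lists were counted whatever their input reads, so the shares are not over the same genes. Gene length was not matched either. The control peaks with a pileup of at least 3 within an exon lay in TBCA, TBCB, CCT6A, TTL, AGBL5, MAP4 and MZT2A, with AGBL5, another tubulin deglutamylase, highest at 4 fragments and a fold of 5. A METTL3-KD peak of this kind lay in the prefoldin subunit PFDN1 (5 fragments, fold 6). The libraries differ in the number of peaks called (2298 and 830), and whether a gene gained or lost a peak was not tested.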

How the data were processed

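Reads per gene and m6A peaks were taken from the deposited files of 8 MeRIP-seq samples. The authors removed rRNA reads with Bowtie2, aligned to hg19 with HISAT2 and counted with featureCounts, and the deposited table holds raw counts. Use of strand, multiple alignments and duplicate removal in counting are not given in the sources used here. The authors called peaks with MACS2 2.1.1 (extension 100 bp, 1 read kept per position, lanes pooled). The deposited pileup is a signal of retained fragments, the deposited fold is the authors' ratio of signal to background, and the deposited −log10 column holds q values. The file headers give a q value of 0.05 and the methods 0.01, and 0.01 was used here.

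The lanes were summed because L001 and L002 were read as sequencer lanes of 1 library. Log2 ratios were computed with edgeR 4.0.16 (TMM, prior count 2, at least 10 reads over both inputs) in R 4.3.3. DESeq2 1.42.0, other scalings, prior counts and filters were alternatives. The calculation was tested on simulated data with 200 changed genes. The simulated reads were independent Poisson draws without copied fragments, so that test does not cover libraries with copying as strong as here. Fragment equivalents are counts divided by the lower mode of reads per gene (density of log2 reads, bandwidth 0.1), and rounded. The lower mode is the local maximum nearest to 1 log2 unit below the highest maximum. Fragment equivalents have exact 95% Poisson and conditional binomial intervals, and shares have 95% Wilson intervals. The TMM factors were kept on the fragment scale. Gene positions and sequences came from GENCODE 44 on GRCh37, the build called hg19 by the authors. Of 63568 identifiers, 43631 matched a symbol.

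All 10 tubulin genes are named. Other tubulin genes and pseudogenes are named with at least 10 reads, and pathway genes as the 3 highest and 3 lowest log2 ratios per list among those with at least 10 reads in each input. Pathway genes with peaks and those with 0 METTL3-KD reads were named after their values were seen. The members, gene lists and tests were chosen with earlier results of these data known. m6A reads per gene were not used here. Some items withheld for evaluation are not reported here.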

Additional observations from a re-analysis of the deposited data

How the results depend on the processing

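The number of tubulin genes above a log2 ratio of 2 was 4, and it became 1 with total counts and 7 when the limit was 1. It was 6 with lanes as replicates in DESeq2, 3 with reads divided by the lower mode, and 3 with at least 10 reads in each input, an alternative chosen after seeing the data. It was 4 in all 4 fits that left out a lane, and 4 in edgeR with lanes as replicates, whether a replicate block was used or not (TUBA1B at 2.91 either way). The lane deviations of the 2 inputs correlated at -0.014 over 1871 genes. Lanes of 1 library differ by sequencing only, so this value cannot show whether the inputs shared a culture or preparation batch. The number under -2 was 0 in every alternative. The share of all genes beyond 2 was computed only with TMM, over genes with at least 10 reads in all or in each input. The other counts are therefore not compared with all genes. The TUBA1B share of alpha reads was 63.7% in the control, and 68.6% per kb of merged exons, 75.3% per kb of canonical transcript (added after seeing the data) and 66.7% by fragment equivalents. In METTL3-KD it was 55.3%, and 59.9% and 65.3% per kb of these lengths and 52.4% with all alpha family genes and pseudogenes. The TUBB share of beta reads was 20.8% in the control, and 18% and 15.6% per kb and 22.2% by fragment equivalents. In METTL3-KD it was 22.9%, and 19.1% and 16.8% per kb and 20.1% with all family members. Without 1 lane, the shares ranged from 63.4% to 63.9% and 54.7% to 55.9% for TUBA1B and from 20.6% to 21.1% and 22.8% to 23.1% for TUBB. The TUBA1C peak was lost (0 genes) with a fold of at least 4 and with a summit in an exon, and 0 control peaks were found in every alternative. Where no reason is given, the cause was not tested. The limits are 1 library per condition, 0 to 4 fragment equivalents per tubulin gene in the control, and reads shared between paralogs.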
